A study of Homo sapiens with 60 samples.

Results

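The genes of cellular iron uptake and storage described here are TFRC, SLC11A2, STEAP3 and SLC25A37, which bring iron in, FTH1, FTL, NCOA4 and SLC40A1, which store, release or export it, and IREB2 and ACO1, which encode the iron regulatory proteins. They are 10 of the 58395 genes in the count table, found by their symbols, and each passed the filter on low counts. The set was chosen by a measured value: the TFRC transcript was more abundant after topotecan with OL9-119 than after topotecan alone. That difference is therefore given as a description, without a test, for every member. The other TFRC comparisons that use the combination or topotecan libraries are treated in the same way.

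RNA was sequenced from HEK293A, a human embryonic kidney cell line, in 3 knockout clones named C6, F7 and G6. TDP1, the target of the CRISPR/Cas9 edit in all of them, encodes the enzyme that removes trapped topoisomerase I from DNA ends. Each clone received topotecan with OL9-119 (here the combination), 5 µM OL9-119, 100 nM topotecan, 0.1% DMSO, or no treatment, for 5 to 5.5 hours, with 4 biological replicates each. Topotecan is a topoisomerase I poison, and OL9-119 is a compound known here by its code name only. The single-drug samples carried 0.1% DMSO, while no DMSO content is named for the combination. Every comparison below was thus made among TDP1-knockout cells of single clones, and unedited parental cells were not analysed here.

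Cells take up transferrin-bound iron through the transferrin receptor, reduce it in endosomes, pass it to the cytosol and mitochondria, and hold the excess in ferritin shells built of heavy and light chains. When iron is scarce, the iron regulatory proteins bind hairpins in mRNAs, the iron-responsive elements. In a 3′ UTR, as in TFRC, this binding protects the mRNA from decay, whereas in a 5′ UTR, as in FTH1, FTL and SLC40A1, it blocks translation and leaves the mRNA in place. Polyadenylated RNA, as sequenced here, carries the amount of each mRNA and not its translation.

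The hairpins of the members are shown because they divide the set into transcripts whose abundance, and transcripts whose translation, the regulatory proteins are known to control. UTRs of the reference genome hg38 (GENCODE 29 basic transcripts) were searched on the transcribed strand for a C, 5 bases, the loop CAGTGN and 5 bases that pair with the first 5, either fully or with 1 unpaired base. The fully paired form was found in 4 members, TFRC, FTH1, FTL and SLC40A1, and the form with an unpaired base in 2, SLC11A2 and IREB2. Of 19641 coding genes searched, 0.81% held the paired form in any UTR and 1.32% the form with an unpaired base. The search fixed the loop and the pairing, so elements of another form would be missed and the matches need not be complete. The 4 TFRC elements found lie in the 3′ UTR on the minus strand at chr3:196050980-196051006, chr3:196050576-196050602, chr3:196050511-196050537 and chr3:196050464-196050490. The SLC11A2 element, at chr12:50988269-50988296 on the minus strand, is in the 3′ UTR of 5 of its 11 basic coding transcripts. The 5′ UTR elements are at chr11:61967575-61967601 (FTH1, minus strand), chr19:48965336-48965362 (FTL, plus strand) and chr2:189580662-189580688 (SLC40A1, minus strand). The IREB2 match, with 1 unpaired base, is in the 3′ UTR of 1 of its 2 basic coding transcripts and is named only. Capitals mark the loop CAGTGN.
TFRC element 1: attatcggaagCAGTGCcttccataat
TFRC element 2: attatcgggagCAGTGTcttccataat
TFRC element 3: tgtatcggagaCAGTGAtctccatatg
TFRC element 4: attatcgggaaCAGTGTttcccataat
SLC11A2 element: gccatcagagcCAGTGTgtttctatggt
FTH1 element: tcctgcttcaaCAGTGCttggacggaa
FTL element: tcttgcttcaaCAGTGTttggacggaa
SLC40A1 element: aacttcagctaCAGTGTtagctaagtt

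The table held whole-number counts per gene, with 4.62 to 20.9 M counts per library (median 11.4 M). Levels are given as counts per 1000000 counts of a library (CPM), with library totals scaled by the TMM method. Of the 60 libraries, 14 showed fewer than 20000 genes at a common depth of 4.5 M counts, with 17453 to 19373 genes, whereas the other 46 showed 20172 to 23625. These 14 low-detection libraries were 10 of C6, 4 of G6 and 0 of F7, and by treatment 4 of the combination, 3 of OL9-119, 2 of topotecan, 3 of DMSO and 2 untreated. The library names carry 1 of 3 prefixes, L01 to L03, whose meaning is not stated. Each prefix held 20 libraries, with every clone and treatment. Within a prefix only 1 clone had 2 libraries per treatment, G6 in L01, C6 in L02 and F7 in L03. The other clones had 1, so p-values within a prefix rest on the spread in that 1 clone. A change that passed in L03 only was thus measured against the spread in F7, which had 0 low-detection libraries. TDP1 transcripts were at 17.8 to 42.3 CPM in all 60 libraries, a level that does not check the edit. All 8 markers listed for cells of the HEK293 type had a median of at least 1 CPM, with summed levels of 1420.3 to 2391 CPM. Markers of other cells summed to 3.04 to 14.2 CPM for blood cells (2 of 6 with a median of at least 1 CPM), 0 to 3.24 CPM for hepatocytes (0 of 5) and 12.4 to 44.2 CPM for fibroblasts (2 of 5, COL1A1 at a median of 27.3 CPM and LUM at 1.58 CPM, with DCN at 0). Each library is bulk RNA, in which fewer cells of a kind and less RNA per cell cannot be told apart.

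Measured per kilobase of exon, the ferritin chains were the most abundant of the 10 transcripts. The length used is that of all annotated exons of a gene together, not of 1 mRNA, so the order of genes depends on the annotation. In the 12 DMSO libraries the FTL level was 690 ± 244 CPM per kb and the FTH1 level 446 ± 110 CPM per kb (SD, n = 12). Without the division by length FTH1 was the higher of them, with a mean of 905 CPM against 606 CPM for FTL. NCOA4, the receptor that carries ferritin to lysosomes for breakdown, followed at 99.5 ± 10.6 CPM per kb. TFRC, at 25.5 ± 3.82 CPM per kb, and IREB2, at 22.2 ± 4.48 CPM per kb, lay within each other's spread. So did SLC25A37 (7.71 ± 1.03 CPM per kb), ACO1 (7.61 ± 1.84 CPM per kb) and STEAP3 (7.49 ± 2.265 CPM per kb). SLC11A2 had a lower mean (5.98 ± 1.11 CPM per kb), and its libraries overlapped theirs in range. These SDs pool the 3 clones and are no test between genes. SLC40A1, which encodes ferroportin, the iron exporter of mammalian cells, was lowest at 2.92 ± 0.631 CPM per kb.

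**Figure D1:**
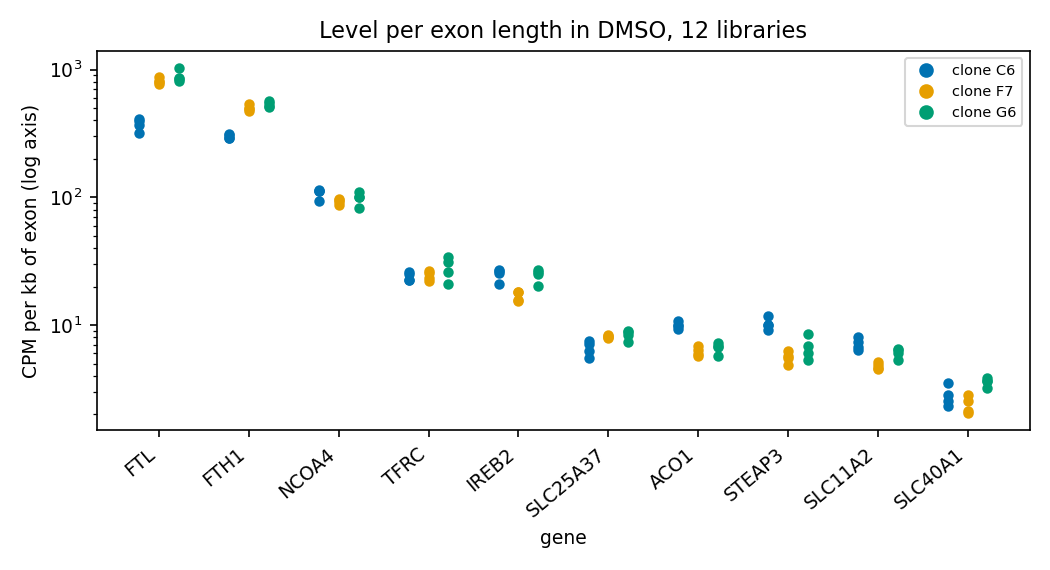
Levels of the 10 iron genes in the 12 DMSO libraries (CPM per kilobase of exon, log axis); each point is 1 library, marked by clone. FTL is spread widest on this plot, and the C6 libraries of FTL and FTH1 lie below those of F7 and G6.

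TFRC, the transferrin receptor (chr3:196027183-196082189, minus strand), was the member with the largest treatment response, and it was high wherever OL9-119 was present. Its level was 306 to 443 CPM (median 372) in the 12 combination libraries and 309 to 395 CPM (median 352) in the 12 OL9-119 libraries. It was 141 to 178 CPM (median 168) after topotecan alone, 164 to 267 CPM (median 201) in DMSO and 160 to 233 CPM (median 185) without treatment. No library with OL9-119 overlapped any library without it. The combination and topotecan libraries entered the choice of the set, so this separation is a description. The share of all genes apart in this way was not counted. Within C6 the OL9-119 replicates had 395, 309, 311 and 383 CPM, against 207, 177, 177 and 199 CPM in DMSO. Within F7 the OL9-119 replicates had 371, 312, 346 and 358 CPM, against 208, 184, 174 and 202 CPM in DMSO. Within G6 the OL9-119 replicates had 386, 345, 364 and 327 CPM, against 267, 206, 246 and 164 CPM in DMSO. The groups were apart in all 3 clones, and the G6 DMSO libraries were the most scattered. The low-detection libraries among the OL9-119 replicates, C6 replicates 1 and 4 and G6 replicate 1, were the highest of their groups.

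The TFRC rise after OL9-119 alone uses no library of the comparison that chose the set, and it was 1.75-fold (log2 0.81 ± 0.06 SE, 95% confidence interval 0.68 to 0.93, adjusted p = 2.88e-15, edgeR). By this rule (adjusted p under 0.05 in either direction) 9.47% of the 18985 genes tested were called for OL9-119 against DMSO, and 2 of the 10 members were, TFRC and SLC11A2, both higher. The median log2 change of the members was −0.01, beside 0.01 over all genes. Within clones the TFRC change was 0.88 ± 0.11 in C6 (adjusted p = 4.89e-08, edgeR), 0.85 ± 0.11 in F7 (adjusted p = 1.71e-07, edgeR) and 0.69 ± 0.11 in G6 (adjusted p = 2.01e-05, edgeR). A test of whether the response differed between clones did not pass for TFRC (adjusted p = 0.999, edgeR). It passed for 0 of the 10 members, 0 at an unadjusted p under 0.05, and for 0.0263% of all genes. Without the low-detection libraries the TFRC change was 0.78 (adjusted p = 1.87e-14, edgeR). Within the prefixes L01, L02 and L03 it was 0.80, 0.71 and 0.94, with adjusted p-values of 0.000648, 0.0470 and 1.53e-15 (edgeR).

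The TFRC comparisons tied to the choice of the set are described only. The combination exceeded topotecan alone 2.27-fold (log2 1.18 ± 0.06 SE), by 1.36 in C6, 1.08 in F7 and 1.11 in G6, with no overlap in any clone. Without the low-detection libraries, which include 3 of the 4 C6 combination and 2 of the 4 C6 topotecan libraries, this difference was 1.12. The combination differed from DMSO by 0.88, from OL9-119 alone by 0.08 ± 0.06, and topotecan from DMSO by −0.30 ± 0.06. The ranges of the combination and OL9-119 libraries overlapped over most of their width, and the upper topotecan libraries overlapped the lower DMSO libraries. The change from topotecan to the combination exceeded that from DMSO to OL9-119 by 0.38 ± 0.09 on the log2 scale. These differences share libraries: topotecan, OL9-119 and the combination were set against the same 12 DMSO libraries, so each is given by its own values and the comparisons are not counted as independent. DMSO differed from no treatment in TFRC by 0.08 (adjusted p = 0.992, edgeR).

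**Figure D2:**
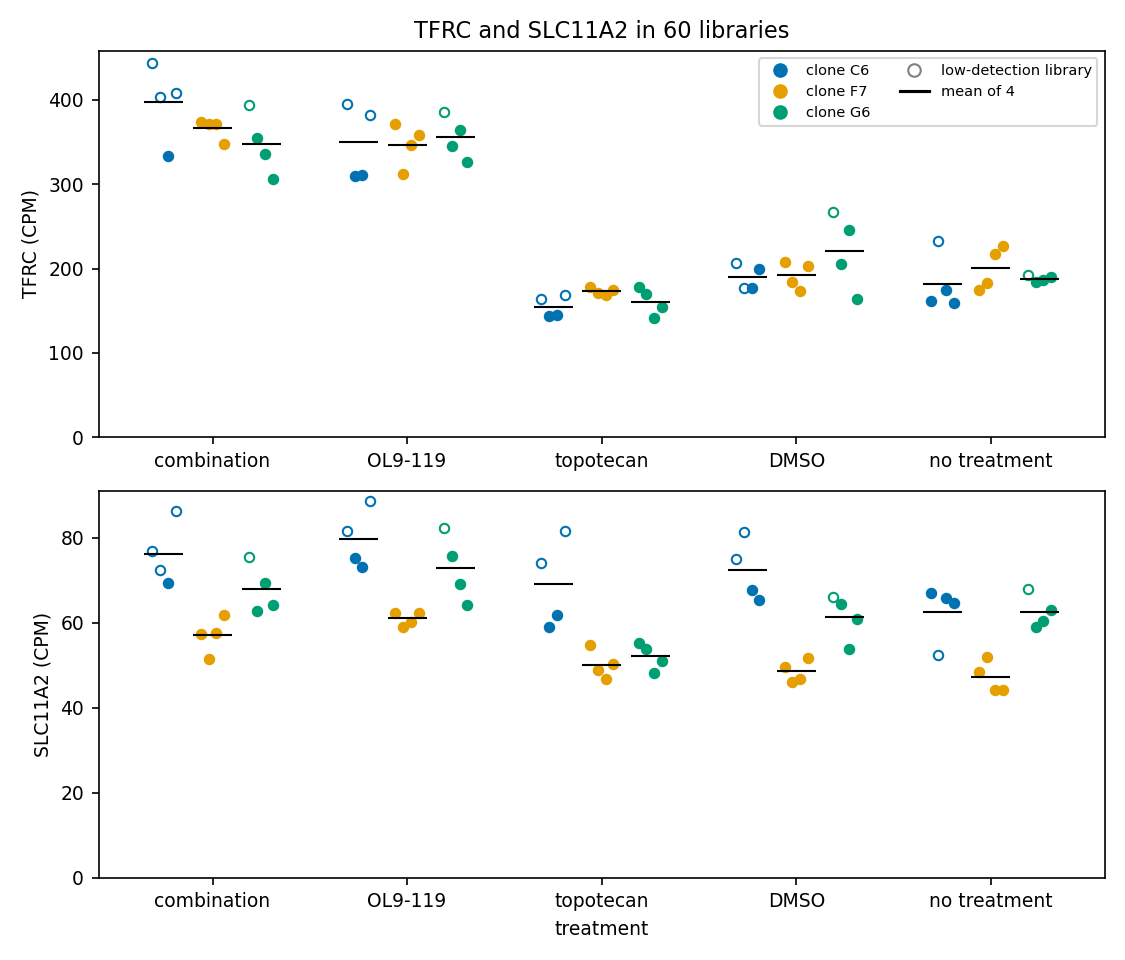
TFRC and SLC11A2 levels (CPM) in each of the 60 libraries by clone and treatment; points are libraries (open where detection was low) and lines are means of 4. TFRC lies at 306 CPM or more in every library with OL9-119 and at 267 CPM or less in every other, whereas the SLC11A2 groups overlap across clones. The combination and topotecan libraries shown entered the choice of the set through TFRC.

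SLC11A2 encodes DMT1, which moves ferrous iron out of endosomes and has a 3′ UTR element in some transcripts (chr12:50979401-51028566, minus strand). It rose after OL9-119 by less than TFRC. Its level was 59.1 to 88.6 CPM (median 71.0) in the 12 OL9-119 libraries and 46.04 to 81.2 CPM (median 62.6) in the 12 DMSO libraries. The pooled ranges overlapped. In C6 and G6, after OL9-119 and in DMSO alike, the low-detection libraries had the highest SLC11A2 values. The change was 0.24 ± 0.06 on the log2 scale (1.18-fold, adjusted p = 0.00192, edgeR), and 0.23 without the low-detection libraries (adjusted p = 0.000649, edgeR). Within F7 the OL9-119 replicates had 62.3, 59.1, 60.2 and 62.3 CPM, against 49.6, 46.04, 46.8 and 51.8 CPM in DMSO. They did not overlap, but neither this change of 0.33 (adjusted p = 0.0888, edgeR) nor those of 0.14 in C6 (adjusted p = 0.504, edgeR) and 0.25 in G6 (adjusted p = 0.231, edgeR) passed on its own. The F7 change did pass under DESeq2 (adjusted p = 0.0457), and in edgeR with prefix as a term (adjusted p = 0.0436) and without the low-detection libraries (adjusted p = 0.00278). Within the prefixes the change was 0.24 in L01 and 0.24 in L02, which did not pass (adjusted p = 0.784 and 1.00, edgeR), and 0.28 in L03, which did (adjusted p = 0.00908, edgeR).

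After the combination, SLC11A2 was at 51.4 to 86.3 CPM (median 66.6), against the same 46.04 to 81.2 CPM in DMSO. That rise of 0.15 ± 0.06 passed narrowly (adjusted p = 0.0411, edgeR), as the 1 called member of the 9 tested, where 21.2% of all genes were called. Within the prefixes it was 0.11 in L01, 0.18 in L02 and 0.26 in L03, and passed in L03 only (adjusted p = 0.806, 0.845 and 0.00956, edgeR). The call was lost, with adjusted p-values of 0.0516 to 0.0976 (edgeR), when any of 7 libraries was left out: C6 DMSO replicates 3 and 4, C6 combination replicate 4, F7 DMSO replicates 2 and 3, and G6 DMSO replicates 3 and 4. Topotecan alone gave 46.6 to 81.4 CPM (median 54.3) and no call for SLC11A2 (log2 change −0.08, adjusted p = 0.369, edgeR).

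SLC25A37, or mitoferrin 1, which carries iron into mitochondria (plus strand of chromosome 8), rose after topotecan. It was at 61.3 to 81.6 CPM (median 72.8) in the 12 topotecan libraries and at 44.9 to 73.5 CPM (median 65.2) in the 12 DMSO libraries. The ranges overlapped, and the change was 0.19 ± 0.05 on the log2 scale (1.14-fold, adjusted p = 0.00282, edgeR). Topotecan changed 15.3% of all genes, and 3 of the 9 members tested, SLC25A37 and FTL upward and IREB2 downward, with a member median of 0.01 beside 0.02 over all genes. In C6 the SLC25A37 change passed alone (0.29 ± 0.09, adjusted p = 0.0363, edgeR), but the test of clone dependence in edgeR passed for 0 of the 9 members, 0 at an unadjusted p under 0.05, and for 0.137% of all genes. Within no prefix did the SLC25A37 change pass. OL9-119 left SLC25A37 at 51.0 to 76.2 CPM (median 65.3), a change of 0.02 against DMSO.

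STEAP3, the endosomal ferrireductase of the transferrin cycle (chr2:119223831-119265652, plus strand), had no treatment call. Its level was 19.5 to 45.8 CPM (median 27.2) after the combination, 20.6 to 60.8 CPM (median 29.8) after OL9-119 and 24.6 to 58.6 CPM (median 29) after topotecan. It was 22.4 to 53.3 CPM (median 29.8) in DMSO. All 4 ranges overlapped. The change against DMSO was −0.14 ± 0.09 for the combination and −0.02 ± 0.08 for OL9-119.

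The ferritin transcripts, whose elements act on translation, had no call with OL9-119. FTH1, the heavy chain with the ferroxidase site (chr11:61959718-61967660, minus strand), was at 546 to 1180.2 CPM (median 981) after OL9-119 and at 591 to 1143 CPM (median 1007) in DMSO. FTL, the light chain (chr19:48965301-48966878, plus strand), was at 287 to 881 CPM (median 650) after OL9-119 and at 278 to 903 CPM (median 709) in DMSO. Both pairs of ranges overlapped almost fully. The log2 change was −0.03 ± 0.03 for FTH1 (95% confidence interval −0.09 to 0.04) and −0.04 ± 0.05 for FTL (−0.15 to 0.06), so a change of the size seen in TFRC lay outside both intervals. Within prefix L03, FTL was called lower after OL9-119 (−0.16, adjusted p = 0.0317, edgeR), while it was at −0.06 in L01 and 0.06 in L02, where it did not pass (adjusted p = 0.967 and 1.00, edgeR). For the combination against DMSO the changes were 0.03 ± 0.03 for FTH1 and 0.04 ± 0.05 for FTL, and neither passed.

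FTL was called higher after topotecan, at a margin that single libraries decided. Its topotecan replicates had 344, 373, 373 and 332 CPM in C6, against 322, 278, 363 and 346 CPM in DMSO. In F7 they had 708, 768, 778 and 802 CPM, against 675, 712, 768 and 707 CPM in DMSO. In G6 they had 836, 889, 917 and 1002 CPM, against 711, 748, 740 and 903 CPM in DMSO. The groups overlapped in each clone. The change was 0.15 ± 0.05 (1.11-fold, adjusted p = 0.0414, edgeR), and within the prefixes it was 0.14, 0.24 and 0.06, none of which passed (adjusted p = 0.667, 0.772 and 0.439, edgeR). It no longer passed, with adjusted p-values of 0.0520 to 0.0949 (edgeR), without any of 9 libraries: C6 DMSO replicate 2, C6 topotecan replicates 2 and 3, F7 DMSO replicates 1, 2 and 4, G6 DMSO replicates 1 and 3, and G6 topotecan replicate 4. FTH1 after topotecan, at 0.08 ± 0.03, did not pass (adjusted p = 0.0837, edgeR), but did under DESeq2 (adjusted p = 0.0391). It also passed without any of 4 libraries, which were C6 DMSO replicate 4, C6 topotecan replicate 4 and F7 topotecan replicates 2 and 4 (adjusted p = 0.0182 to 0.0492, edgeR). Coding genes spanning under 10 kb, as FTL (1.58 kb) and FTH1 (7.94 kb) do, had a median topotecan change of 0.12. The quartiles of that class, 0.01 and 0.24, enclose both ferritin values. The part of length in them was not tested.

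Reads of the ferritin genes may be shared with processed copies. The 25 FTH1 pseudogenes in the table, 20 of them with counts, held 0.931% of the FTH1 count, and the 16 FTL pseudogenes, 7 with counts, held 1.02% of the FTL count. FTH1 also overlaps BEST1 on the opposite strand over 1267 exon bases, and the BEST1 count was 1.5% of that of FTH1. Whether counting used the strand is not given in the sources used here.

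NCOA4 (chr10:46005088-46030714, minus strand) and SLC40A1 (chr2:189560579-189583758, minus strand), which release stored iron and export it, had no treatment call. NCOA4 was at 328 to 537 CPM (median 429) after the combination, 333 to 496 CPM (median 404) after OL9-119, 353 to 502 CPM (median 398) after topotecan and 335 to 469 CPM (median 403) in DMSO. SLC40A1 was at 6.62 to 19.9 CPM (median 12.7) after the combination, 9.03 to 16.9 CPM (median 12.6) after OL9-119, 9.12 to 15.7 CPM (median 12.98) after topotecan and 8.84 to 16.6 CPM (median 12.2) in DMSO. The ranges of both genes overlapped in every comparison. The OL9-119 change was −0.01 ± 0.06 for NCOA4 and −0.01 ± 0.10 for SLC40A1.

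**Figure D3:**
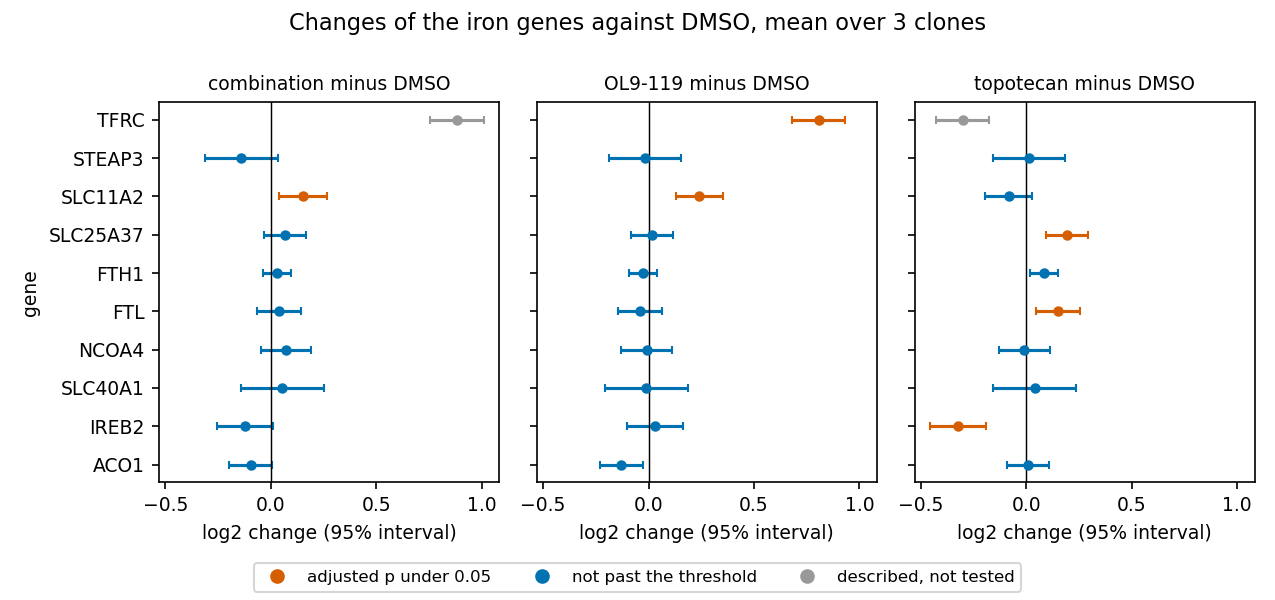
Log2 change of each iron gene for the combination, OL9-119 and topotecan against DMSO, over the 3 clones; points are edgeR estimates and bars 95% confidence intervals, orange where the adjusted p is under 0.05 and grey where not tested. TFRC stands at 0.88 with the combination, 0.81 with OL9-119 and −0.30 with topotecan, while the other 9 genes lie between −0.32 and 0.24.

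IREB2 encodes IRP2, the iron regulatory protein that is degraded when iron is plentiful (chr15:78437431-78501456, plus strand), and it fell after topotecan. The topotecan replicates had 195, 214, 213 and 264 CPM in C6, against 275, 290, 227 and 284 CPM in DMSO. In F7 they had 175, 162, 159 and 143 CPM, against 196, 171, 168 and 197 CPM in DMSO. In G6 they had 189, 201, 195 and 171 CPM, against 284, 293, 271 and 220 CPM in DMSO. All 4 topotecan libraries of G6 lay below all 4 of DMSO, whereas the groups overlapped in C6 and F7. The change was −0.32 ± 0.07 over the clones (adjusted p = 0.000191, edgeR) and −0.30 without the low-detection libraries (adjusted p = 0.000222, edgeR). Within the prefixes it was −0.40, −0.25 and −0.25, and passed in L03 only (adjusted p = 0.0917, 0.837 and 0.00261, edgeR). Within clones it passed in G6 (−0.50, adjusted p = 0.00174, edgeR), but not in C6 (−0.28, adjusted p = 0.186, edgeR) or F7 (−0.19, adjusted p = 0.827, edgeR). Gene length moved with the topotecan change across the genome: the median log2 change was 0.12 in genes spanning under 10 kb, −0.01 at 30 to 100 kb and −0.36 above 200 kb. IREB2 spans 64.0 kb, and its value is below the lower quartile of −0.12 for its length class; the part of length in it was not tested. After OL9-119 the IREB2 level was 193 to 313 CPM (median 233), against 168 to 293 CPM (median 249) in DMSO, a change of 0.03 ± 0.07.

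ACO1 encodes IRP1, which is a cytosolic aconitase when it holds an iron-sulfur cluster and an RNA-binding protein when it does not (chr9:32384603-32454769, plus strand). It was at 37.7 to 70.2 CPM (median 48.2) after OL9-119 and at 42.98 to 81.2 CPM (median 52.0) in DMSO. The ranges overlapped, and the change of −0.13 ± 0.05 did not pass (adjusted p = 0.106, edgeR). Topotecan changed ACO1 by 0.01 ± 0.05 and the combination by −0.09 ± 0.05, neither of which passed.

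In the comparison that chose the set, combination against topotecan, 6.78% of all genes were called. The differences of the members other than TFRC were smaller than its own. They were 0.24 ± 0.06 for SLC11A2, 0.20 ± 0.07 for IREB2, 0.08 ± 0.06 for NCOA4 and 0.02 ± 0.10 for SLC40A1. They were −0.05 ± 0.03 for FTH1, −0.10 ± 0.05 for ACO1, −0.11 ± 0.05 for FTL, −0.13 ± 0.05 for SLC25A37 and −0.15 ± 0.09 for STEAP3. Between the combination and OL9-119 alone, 12.7% of all genes were called and 0 of the 9 members tested, with the largest difference in IREB2 (−0.15 ± 0.07, adjusted p = 0.138, edgeR). Of these 9, 1 had an unadjusted p under 0.05 in edgeR, IREB2, and 0 were called by DESeq2. DMSO against no treatment gave calls for 0.0158% of all genes and 0 of the 10 members, of which 0 had an unadjusted p under 0.05 in edgeR and 0 were called by DESeq2. Clone dependence of the combination effect passed in edgeR for 0.169% of all genes and 0 of the 9 members tested, and 0 had an unadjusted p under 0.05.

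Among the members, the clones differed most in FTL, and both ferritin chains were low in C6. In DMSO the log2 differences between clones reached −1.24, whereas the called drug changes of the members other than TFRC, taken over the 3 clones, lay between −0.32 and 0.24. In DMSO the FTL replicates had 322, 278, 363 and 346 CPM in C6, against 675, 712, 768 and 707 CPM in F7 and 711, 748, 740 and 903 CPM in G6. The FTH1 replicates had 622, 596, 591 and 633 CPM in C6, against 961, 1003, 1083 and 1012 CPM in F7 and 1038, 1057, 1116 and 1143 CPM in G6. No C6 library overlapped a library of the other clones. FTL was lower in C6, with log2 changes of −1.13 ± 0.09 against F7 (0.458-fold, adjusted p = 4.23e-15, edgeR) and −1.24 ± 0.09 against G6 (adjusted p = 2.47e-16, edgeR). For FTH1 the changes were −0.73 ± 0.06 (0.602-fold, adjusted p = 8.74e-16, edgeR) and −0.83 ± 0.06 (adjusted p = 1.41e-17, edgeR).

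The low ferritin of C6 held in every treatment. Over its 20 libraries FTH1 was at 546 to 723 CPM (median 619) in C6, against 952 to 1114 CPM (median 1022) in F7 and 992 to 1209 CPM (median 1125) in G6. FTL was at 278 to 436 CPM (median 340) in C6, against 641 to 802 CPM (median 707) in F7 and 693 to 1002 CPM (median 853) in G6. Since 10 of the C6 libraries are low-detection ones, the ranges without them matter, and these were 578 to 665 CPM for FTH1 and 338 to 436 CPM for FTL in C6. The FTL change against F7 was −1.02 without the low-detection libraries, and −1.06, −1.18 and −1.11 within the 3 prefixes. Against G6 it was −1.18 without the low-detection libraries, and −1.18, −1.19 and −1.41 within the prefixes. F7 and G6 did not pass against each other for FTH1 (−0.10, adjusted p = 0.227, edgeR) or FTL (−0.12, adjusted p = 0.408, edgeR), although FTL did within prefix L03 (−0.31, adjusted p = 0.00747, edgeR).

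**Figure D4:**
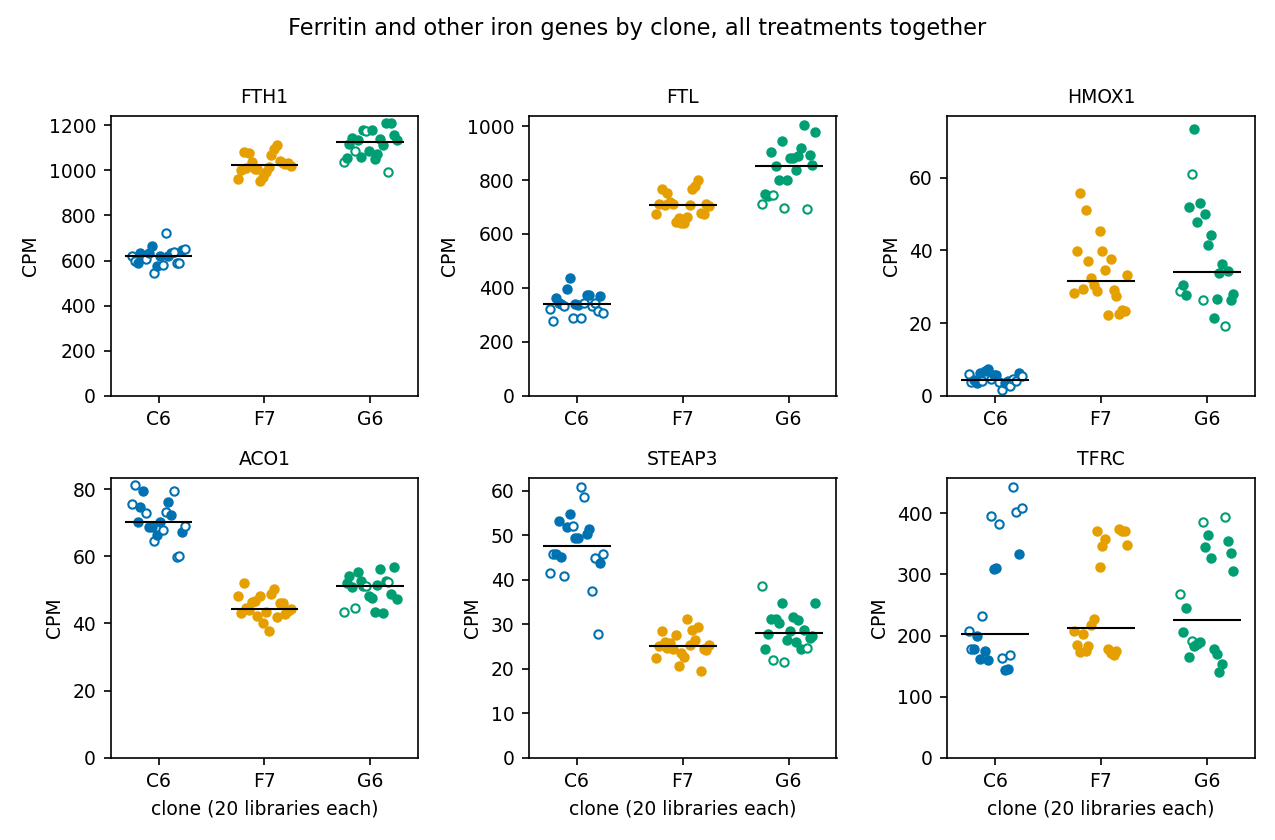
Levels of FTH1, FTL, HMOX1 (the heme oxygenase gene described further on), ACO1, STEAP3 and TFRC (CPM) in the 20 libraries of each clone, all treatments together; each point is 1 library, open where detection was low, and lines are medians. Every C6 library lies below every F7 and G6 library for FTH1, FTL and HMOX1 and above them for ACO1, whereas the TFRC points split by treatment within each clone.

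ACO1 and STEAP3 differed in the other direction. In DMSO, ACO1 had 75.6, 81.2, 70.3 and 74.8 CPM in C6, against 48.3, 42.98, 51.9 and 44.5 CPM in F7 and 43.5, 52.0, 54.3 and 50.8 CPM in G6. STEAP3 had 41.6, 45.7, 45.7 and 53.3 CPM in C6, against 22.4, 25.01, 28.4 and 26 CPM in F7 and 38.7, 24.5, 27.7 and 31.2 CPM in G6. Both were higher in every C6 library than in any library of F7 or G6. The ACO1 change was 0.68 ± 0.09 against F7 (adjusted p = 6.02e-09, edgeR) and 0.59 ± 0.09 against G6 (adjusted p = 4.90e-07, edgeR). The STEAP3 change was 0.88 ± 0.15 against F7 (adjusted p = 2.92e-06, edgeR) and 0.61 ± 0.15 against G6 (adjusted p = 0.00140, edgeR). Over all treatments the ACO1 ranges stayed apart, with 59.9 to 81.2 CPM in C6, 37.7 to 51.9 CPM in F7 and 43.02 to 56.7 CPM in G6, while those of STEAP3 overlapped.

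In all, 7 of the 10 members were called between C6 and F7, where 39.5% of all genes were: SLC11A2, IREB2, ACO1 and STEAP3 were higher in C6, and FTH1, FTL and SLC25A37 lower. Between C6 and G6 it was 5 of 10, ACO1 and STEAP3 higher and FTH1, FTL and SLC25A37 lower, where 24.4% of all genes were called. Between F7 and G6 it was 3 of 10, where 17.1% of all genes were called, and SLC11A2, IREB2 and SLC40A1 were lower in F7. SLC25A37 differed by −0.31 ± 0.09 between C6 and F7 (adjusted p = 0.00327, edgeR) and by −0.35 ± 0.09 between C6 and G6 (adjusted p = 0.00173, edgeR). Within the prefixes these SLC25A37 differences were −0.08, −0.44 and −0.40 against F7, and −0.20, −0.20 and −0.55 against G6, and passed in L03 only (adjusted p = 0.0106 and 0.00179, edgeR). Of the clone calls, those of FTH1 and FTL between C6 and either other clone were the ones that passed within all 3 prefixes. SLC11A2 had 74.9, 81.2, 67.8 and 65.2 CPM in C6, against 49.6, 46.04, 46.8 and 51.8 CPM in F7 and 66.0, 64.3, 53.8 and 60.8 CPM in G6. F7 was thus the low clone for SLC11A2, by a C6 minus F7 change of 0.57 ± 0.10 (adjusted p = 3.39e-06, edgeR) and an F7 minus G6 change of −0.34 ± 0.10 (adjusted p = 0.0102, edgeR; 0.0508 without G6 DMSO replicate 1). IREB2 was likewise low in F7, with changes of 0.56 ± 0.12 (adjusted p = 8.63e-05, edgeR) and −0.55 ± 0.11 (adjusted p = 0.000355, edgeR).

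SLC40A1 had 12.3, 9.12, 8.84 and 11.0 CPM in F7, against 15.7, 15.8, 16.6 and 13.9 CPM in G6, with no overlap (−0.58 ± 0.17, adjusted p = 0.0108, edgeR). C6 minus G6, at −0.37 for SLC40A1 (adjusted p = 0.117, edgeR), passed without C6 DMSO replicate 2 (adjusted p = 0.0494, edgeR) and without the low-detection libraries (−0.53, adjusted p = 0.0289, edgeR). NCOA4, at 0.22 between C6 and F7 (adjusted p = 0.0816, edgeR), passed without C6 DMSO replicate 3 (adjusted p = 0.0299, edgeR). Low detection moved with NCOA4, which was at 434 to 537 CPM in the low-detection C6 libraries and 336 to 457 CPM in the other C6 libraries. TFRC showed no clone call in DMSO, although C6 minus G6 (−0.21, adjusted p = 0.154, edgeR) and F7 minus G6 (−0.20, adjusted p = 0.213, edgeR) passed without G6 DMSO replicate 4, at −0.33 (adjusted p = 0.0200, edgeR) and −0.32 (adjusted p = 0.0266, edgeR).

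Of 17 genes of heme synthesis, breakdown and transport, all tested, 3 rose and 1 fell with the combination, 1 rose and 3 fell with OL9-119, and 2 rose and 1 fell with topotecan, each against DMSO. That is 23.5%, 23.5% and 17.6% of the list, where 21.2%, 9.47% and 15.3% of all genes were called. The list's median log2 changes were 0.06, 0.01 and 0.11, in that order of treatments, beside −0.01, 0.01 and 0.02 over all genes. ALAS1, the rate-limiting enzyme of heme synthesis outside red cells, rose in all 3 comparisons. It averaged 85.7 CPM after the combination (0.66 ± 0.05, adjusted p = 2.21e-16, edgeR), 74.8 CPM after OL9-119 (0.46 ± 0.05, adjusted p = 2.42e-10, edgeR) and 71.3 CPM after topotecan (0.40 ± 0.05, adjusted p = 4.00e-09, edgeR), against 54.5 CPM in DMSO. FECH, the ferrochelatase that inserts iron into heme, rose with the combination (0.31 ± 0.05, 65.9 CPM against 53.3 CPM in DMSO). ALAD, an early enzyme of the pathway, rose with the combination (0.34 ± 0.06) and topotecan (0.25 ± 0.06). BLVRA, biliverdin reductase, fell in all 3 comparisons, with log2 changes of −0.25, −0.20 and −0.17 in the same order. FLVCR1, a heme exporter in erythroid cells, and PGRMC1, a heme-binding protein, fell with OL9-119 (−0.28 ± 0.07 and −0.22 ± 0.05).

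**Figure D5:**
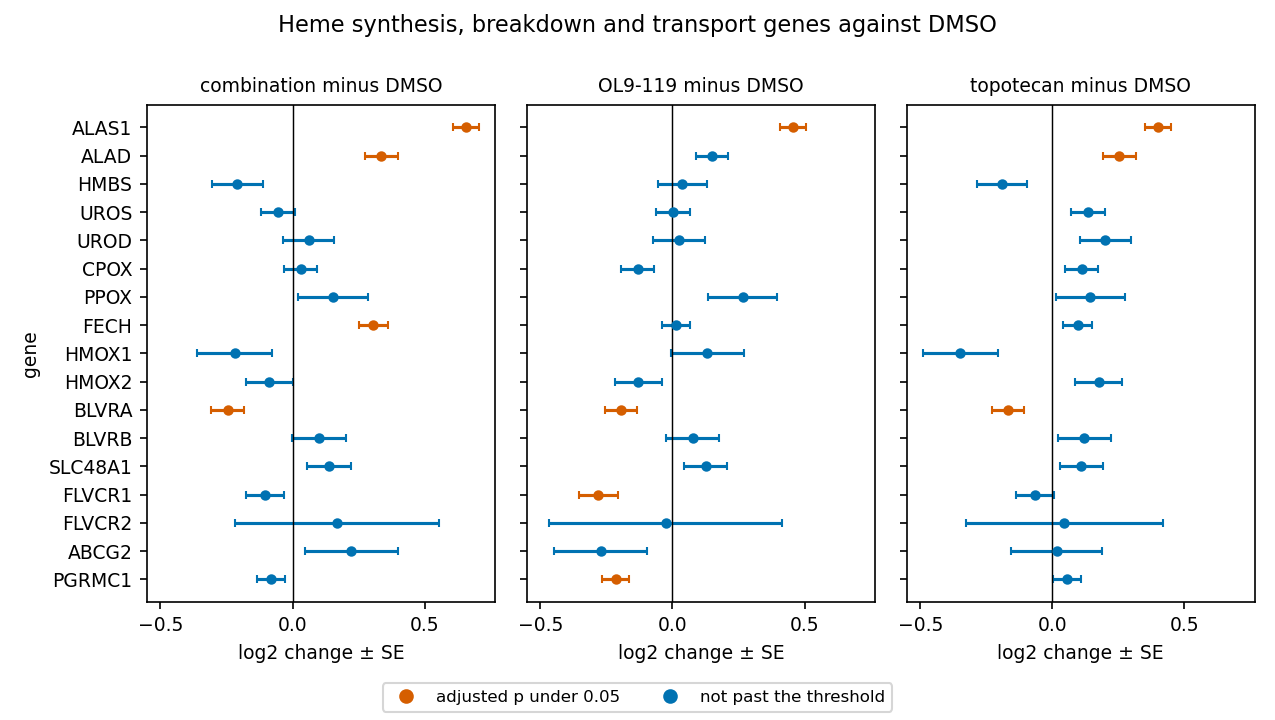
Log2 changes of the 17 heme genes for the combination, OL9-119 and topotecan against DMSO; points are edgeR estimates with bars of 1 standard error on either side, orange where the adjusted p is under 0.05. ALAS1 lies to the right of 0 in all 3 panels, at 0.66, 0.46 and 0.40.

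Of the iron-sulfur cluster assembly list, 27 of 28 genes were tested. With the combination 1 rose and 7 fell, with OL9-119 0 rose and 3 fell, and with topotecan 2 rose and 3 fell. That is 29.6%, 11.1% and 18.5% of the list, beside 21.2%, 9.47% and 15.3% of all genes, with list medians of −0.02, −0.04 and −0.01 beside −0.01, 0.01 and 0.02. The OL9-119 falls were in GLRX5 (−0.32 ± 0.06), a monothiol glutaredoxin of mitochondria, BOLA3 (−0.31 ± 0.07), a late assembly factor, and CIAO2A (−0.25 ± 0.06), a cytosolic targeting factor that in human cells matures IRP1. With topotecan, NUBPL, an assembly factor for respiratory complex I, fell by 0.44 on the log2 scale and LYRM4, a partner of the cysteine desulfurase, by 0.34.

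Of the 30 other iron transport, reduction, chaperone and sensing genes, 20 were tested. With the combination 0 rose and 3 fell, with OL9-119 0 rose and 0 fell, and with topotecan 1 rose and 5 fell (15%, 0% and 30% of those tested, beside the same shares of all genes). For OL9-119, 2 of the 20 had an unadjusted p under 0.05 in edgeR and 0 were called by DESeq2. BMPR1A, a receptor in the bone morphogenetic protein signal that in liver drives hepcidin, averaged 67.5 CPM after the combination and 62.1 CPM after topotecan, against 93.9 CPM in DMSO (−0.46 ± 0.07 and −0.58 ± 0.07). Of 7 other transcripts with a known iron-responsive element, 6 were tested. In edgeR 0 rose, while 4 fell with the combination, 1 with OL9-119 and 2 with topotecan (66.7%, 16.7% and 33.3%). Of all genes, 21.2%, 9.47% and 15.3% were called. The list medians were −0.14, −0.05 and −0.10, beside −0.01, 0.01 and 0.02 over all genes. Of the same 6, DESeq2 called 2, 1 and 2 in that order of treatments. The largest fall was in CDC42BPA, a kinase gene, at 56.5 CPM after the combination and 52.6 CPM after topotecan, against 88.2 CPM in DMSO. Coding genes spanning above 200 kb had a median change of −0.36 with topotecan and −0.32 with the combination. The spans of the genes named from the lists were not compared, and the part of length in their falls was not tested. Of 13 NRF2 and BACH1 target or regulator genes, 4 rose and 1 fell with the combination, and 1 rose and 1 fell with OL9-119. With topotecan 0 rose and 1 fell. That is 38.5%, 15.4% and 7.69% of the list, where 21.2%, 9.47% and 15.3% of all genes were called. The list medians were 0.14, 0.08 and 0.05, beside the same medians over all genes. The riser after OL9-119 was the cystine transporter gene SLC7A11 and the faller TXNRD1, thioredoxin reductase (−0.32 ± 0.04).

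Between clones, the heme list held 3 genes higher and 6 lower in C6 than in F7, and 3 higher and 4 lower in C6 than in G6. That is 52.9% and 41.2% of the list, where 39.5% and 24.4% of all genes were called. HMOX1, which encodes the inducible heme oxygenase that frees iron from heme, was at 1.74 to 7.49 CPM (median 4.44) over the 20 libraries of C6, against 22.1 to 55.8 CPM (median 31.5) in F7 and 19.2 to 73.4 CPM (median 34.1) in G6. No C6 library overlapped the others. In DMSO the HMOX1 change was −3.17 ± 0.26 against F7 (adjusted p = 6.15e-15, edgeR) and −3.04 ± 0.26 against G6 (adjusted p = 5.72e-14, edgeR). The NRF2 and BACH1 list, which also holds HMOX1, had 2 genes higher and 5 lower in C6 than in F7, and 1 higher and 6 lower than in G6 (53.8% in both comparisons). NQO1, a quinone reductase gene, was among the lower ones (−1.50 and −1.59). Between F7 and G6, 0 genes of that list were called in edgeR, 1 had an unadjusted p under 0.05, and 0 were called by DESeq2. In the list of other iron genes, 5 were higher and 4 lower in C6 than in F7 (45% of those tested). They include CYBRD1, a ferrireductase gene, at 16.04 CPM in C6 against 5.23 CPM in F7 (1.62 ± 0.18), FBXL5, the ligase subunit that marks IRP2 for breakdown (0.61 ± 0.12), and the iron and zinc importer gene SLC39A14 (−0.48 ± 0.07).

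Over the means of the 15 groups of clone and treatment, the transcripts whose pattern was most like that of TFRC among the 12586 genes averaging at least 2 in log2 CPM were DCLRE1C (Pearson r = 0.943), PSAT1 (0.925), AC240274.1 (0.914), SLC7A11 (0.909) and SERAC1 (0.902). These groups share clones and control libraries, so the values are descriptions. Of the members, SLC11A2 was the most like TFRC (0.50), and 5.41% of the genes compared had a higher value. FTH1 (−0.03), FTL (−0.06) and SLC40A1 (0.02) were near 0.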

How the data were processed

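Polyadenylated RNA of 60 libraries, in 15 groups of 4, was sequenced from a directional kit. Reads were handled with FastQC 0.11.9, STAR 2.7.8 and Picard 2.26.6 on hg38, per the submitters' processing notes; which tool counted reads, and on which strand, is not given in the sources used here. The authors deposited raw counts per gene, unnormalized. Of 58395 gene identifiers, 58275 were in GENCODE 29, which gave names, exon lengths and hg38 positions. Per library, 4.62 to 20.9 M counts were available.

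The 18985 genes that passed edgeR's filter on low counts were fitted together in R 4.3.3 with edgeR 4.0.16 (TMM scaling, quasi-likelihood F test, 1 mean per group, prior count 2), and a treatment effect is the mean of its differences within the 3 clones. P-values were adjusted over all genes tested (Benjamini-Hochberg, called under 0.05). Replicates are labelled biological, with no statement of separate cultures on separate days, so p-values measure the spread between these samples. Alternatives were DESeq2 1.42.0, its size factors in edgeR, no filter, prefix as a term or within prefixes, a replicate block, omission of the low-detection libraries and omission of each library. Replicate numbers were not used as pairs in the fit reported, since 55 of 120 same-number pairs deviated together (correlation above 0.1) and not all. All 10 pairs did so for C6 replicate 3 and for G6 replicates 1 and 4. A shared deviation by number was thus present in part, and the fit reported does not take it up. In simulated OL9-119 data over 18985 genes, 50 genes per size of change were altered, all averaging above 2 in log2 CPM. Of those raised 1.25-fold 58% were recovered, and of those raised 2-fold 96%, while 10 unaltered genes were called. Counts were drawn independently, without low detection or shared deviations, so recovery in the real libraries may be lower.

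The members and the lists of heme, iron-sulfur, other iron, iron-responsive element and NRF2 and BACH1 genes were chosen with earlier results of these data known. Genes named from a list are the up to 4 called genes with the smallest p per comparison, and genes like TFRC are the 5 with the highest correlation; other named list genes were chosen after their values were seen. The summed level of a further marker list is not reported here.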

Additional observations from a re-analysis of the deposited data

Results flagged for a closer look

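Of 150 sets of 4 replicates (10 genes in 15 groups), 10 held 1 replicate whose distance from its nearest neighbour passed Dixon's 95% critical value as a share of the set's range. Chance alone gives about 1 in 20 such sets. The causes were not tested.

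TFRC in F7 after the combination had 348 CPM in replicate 4, below the 371 to 374 CPM of the other 3, but still above every library without OL9-119. SLC11A2 in untreated C6 had 52.4 CPM in replicate 2, below 64.6 to 66.9 CPM. STEAP3 in C6 after the combination had 27.8 CPM in replicate 2, below 43.8 to 45.8 CPM. In that same library SLC40A1 had 6.62 CPM, below 12.4 to 13.6 CPM. SLC40A1 in F7 after OL9-119 had 12.5 CPM in replicate 3, above 9.03 to 9.51 CPM, and IREB2 in that library had 205 CPM, above 193 to 195 CPM. NCOA4 had 397 CPM in F7 combination replicate 3, below 428 to 432 CPM, and 381 CPM in C6 DMSO replicate 3, below 456 to 469 CPM. SLC25A37 had 51.0 CPM in C6 OL9-119 replicate 4, below 56.8 to 57.0 CPM, and 75.4 CPM in untreated G6 replicate 3, above 68.9 to 69.5 CPM.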

How the results depend on the processing

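The signs of member changes with an adjusted p under 0.05 were compared. Some of these, taken by the same threshold, are described above without a test, among them TFRC in the comparison that chose the set. The alternative fits reuse all or part of the same libraries, so a kept sign is a description and not an independent check. Signs stayed the same in all of 252 alternative values that left out no single library. Of 612 such values of the other changes, 45 had the other sign, among them STEAP3 in the combination minus topotecan (0.14 within L03, −0.15 over all libraries). The fits within a prefix, on 20 libraries with 1 or 2 per group, called fewer genes; in L01 and L02, in that order, the counts were 985 and 484 for C6 minus F7, 451 and 83 for C6 minus G6, 115 and 8 for F7 minus G6, 269 and 86 for topotecan, 56 and 32 for OL9-119, 382 and 142 for the combination, 35 and 15 for the combination minus topotecan, 177 and 30 for the combination minus OL9-119, 1 and 1 (10 in the 60-library fit) for the iron lists after OL9-119, and 0 and 0 for members within clones. DMSO minus no treatment gave 0 in each prefix. Clone dependence gave 0, 0 and 238 for topotecan, 0, 0 and 24 for OL9-119 and 0, 0 and 77 for the combination. SLC11A2 after OL9-119 kept 0.24 in both prefixes but no longer passed. With a replicate block the combination minus topotecan gave 2455 calls and DMSO minus no treatment 11; the numbers were not taken as pairs, since not every same-number pair correlated (55 of 120 same-number pairs correlated above 0.1, and 35 of 60 libraries matched their own number best). IREB2 between the combination and OL9-119 passed with the block (adjusted p = 0.0373), as did SLC11A2 between C6 and G6 (0.0426) and after OL9-119 in F7 (0.0221). DMSO minus no treatment gave 13 calls without the filter, 16 in DESeq2 and 0 without the low-detection libraries. OL9-119 minus DMSO gave 2902 calls without the low-detection libraries. Clone dependence gave 9 calls for OL9-119 without the filter and 52 for topotecan without the low-detection libraries. Without the filter, SLC11A2 after the combination (0.17, adjusted p = 0.172) and between F7 and G6 (−0.31, adjusted p = 0.144), SLC40A1 between F7 and G6 (−0.55, adjusted p = 0.0741) and SLC25A37 between C6 and G6 (−0.35, adjusted p = 0.0544) no longer passed. The causes were not tested. The clone comparisons without the low-detection libraries or within prefixes, the prefix fits of the iron lists, and the alternatives for clone dependence and for changes within clones were chosen after seeing the data.

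Leaving out each library in turn gave 2612 to 3430 calls for topotecan, 1576 to 2058 for OL9-119, 3792 to 4185 for the combination, 980 to 1848 for the combination minus topotecan, 2282 to 2766 for the combination minus OL9-119, 1 to 12 for DMSO minus no treatment, 6454 to 7905 for C6 minus F7, 3910 to 4919 for C6 minus G6, 2216 to 4137 for F7 minus G6, and 20 to 30, 3 to 5 and 21 to 43 for clone dependence of topotecan, OL9-119 and the combination. TFRC after OL9-119 stayed at 0.77 to 0.84 and SLC11A2 at 0.22 to 0.26, both past the threshold each time. SLC40A1, the lowest member at 6.62 to 19.9 CPM, had an SE of 0.10 after OL9-119, against 0.03 for FTH1.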
